A study of Mus musculus with 12 samples.

Results

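Macrophages that lack Trem2 were compared with wild-type (WT) macrophages while both were exposed to bafilomycin A1 (BafA1). The comparison takes 3 libraries labelled Trem2 KO, BafA1 against 3 labelled WT, BafA1, which are 6 of the 12 libraries of the series, and it covers all genes. The cells were mouse bone-marrow-derived macrophages (BMDM), grown from marrow with the growth factor M-CSF, cryopreserved, thawed and then given 25 nM BafA1 for 22 hours. The other 6 libraries are WT and Trem2 KO cells given the solvent DMSO for the same time, and they serve here as the background of the genotype difference. Each library is a biological replicate by its label, made from bones of several mice pooled together, so differences between single mice were averaged. Strain, age and sex of the mice, and the part of Trem2 that was deleted, are not given in the labels used here.

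TREM2 is a surface receptor of macrophages, microglia and osteoclast precursors that binds lipids, lipoproteins and cell debris and signals through the adaptor TYROBP (DAP12) and the kinase SYK. Its signals favour survival, proliferation, phagocytosis and lipid handling, and it acts beside the M-CSF receptor. BafA1 blocks the V-ATPase, the proton pump that acidifies lysosomes, so that lysosomal enzymes lose activity and cargo accumulates. The comparison therefore asks how a macrophage without TREM2 differs from a normal one when lysosomes of both cannot acidify.

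The 6 libraries held 4496798 to 7074860 estimated counts each, and 12052 of 56980 features had enough counts to be tested. RNA integrity numbers in the labels were 9.7 or 9.8. Features of the mitochondrial genome took 3.72% to 3.84% of counts in WT and 4.22% to 4.30% in Trem2 KO, so the groups did not overlap, with an exact two-sided permutation p of 0.1, the smallest that 3 against 3 libraries allow. The first principal component of the 6 libraries held 54.3% of the variance and separated the genotypes, and the second, with 14.3%, set Trem2 KO replicates 2 and 3 apart from each other. All 12 macrophage markers were detected, with summed levels of 5627 to 6159 CPM (counts scaled to a library of 1e6) in WT and 5917 to 7328 in Trem2 KO. Markers of mast cells and basophils were at or near 0, with 5 of 10 at 0 counts in the 6 libraries, and of the B and plasma cell list 1 of 10 genes passed the filter. Granulocyte markers were present at low levels and were higher in Trem2 KO, with summed values of 50.2 to 61.5 CPM in WT and 74.3 to 133 CPM in Trem2 KO, and their part in the results below was not tested. In bulk RNA, fewer cells of a type and less RNA per cell cannot be told apart.

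Trem2 itself (ENSMUSG00000023992) was lower in every Trem2 KO library than in any WT library, but transcript tags remained. Its level was 401, 400.5 and 401 CPM in the WT libraries and 149, 147 and 182 CPM in the Trem2 KO libraries, here and below in the order of replicates 1, 2 and 3. The knockout libraries thus held 39.8% of the WT level, and the log2 difference was -1.33 (SE 0.081, adjusted p 1.4e-10) by edgeR's quasi-likelihood test with Benjamini-Hochberg adjustment, which gives every adjusted p below. Libraries were made from the 3′ ends of mRNA, so a tag outside the deleted part could still be counted, and these values do not measure intact transcript. Of 61 tested genes that start within 5 Mb of Trem2, 4 were higher and 14 lower in Trem2 KO. These were 6.56% higher and 22.95% lower, against 12.5% and 14.2% over all genes, and 29.5% in either direction, against 26.7%. The other receptors of the Trem gene cluster had too few counts to be tested.

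Among 20 tested genes of the TREM2 complex and its signalling, 3 were higher and 4 lower, including Trem2. Tyrobp, the adaptor that carries the TREM2 signal, was higher in the knockout, with 758, 797 and 801 CPM in WT and 999.9, 950.2 and 1217 CPM in Trem2 KO. The groups did not overlap, and the log2 difference was 0.43 (SE 0.089, adjusted p 0.0012). Malt1, a scaffold protease on the path from such receptors to NF-kB, was lower at -0.66 (SE 0.13, adjusted p 5.4e-04), from 96.2 ± 14.0 CPM (mean ± SD, n = 3) in WT to 60.2 ± 13.7 CPM (n = 3) in Trem2 KO.

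Across all genes, 3223 of 12052 differed between the genotypes under BafA1 (26.7%), of which 1507 were higher (12.5%) and 1716 lower (14.2%) in Trem2 KO. At least a 2-fold difference was seen in 607 of these (5.04%), split into 305 higher (2.53%) and 302 lower (2.51%). The 3 Trem2 KO libraries lay above all 3 WT libraries for 2353 genes (19.5%) and below them for 2574 (21.4%). Statements below that the genotypes did not overlap are to be read against these shares. For the 12 largest increases and 12 largest decreases a lack of overlap was a condition of the choice, so it adds no support for them. The median log2 difference over all tested genes was 0.01. Lists of genes are described below by how many tested members were called in each direction, to be read against 12.5% higher and 14.2% lower over all genes. For list counts in DMSO these shares were 13.8% higher and 16.5% lower. The genotype difference itself differed between BafA1 and DMSO in 8.81% of all genes, positive in 4.88% and negative in 3.93%. Some genes stand on several lists, so the list counts are not independent. The count of called genes fell to 2163 without WT BafA1 replicate 1 and to 2323 without Trem2 KO BafA1 replicate 3, of which 2119 and 2214 were among the 3223. Lists of signalling targets, ER chaperones, integrins, lipid synthesis and cell division leaned toward lower values, and lists of interferon-stimulated genes, Ms4a genes and C-type lectins toward higher ones, as the plot of called members by list shows.

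**Figure D1:**
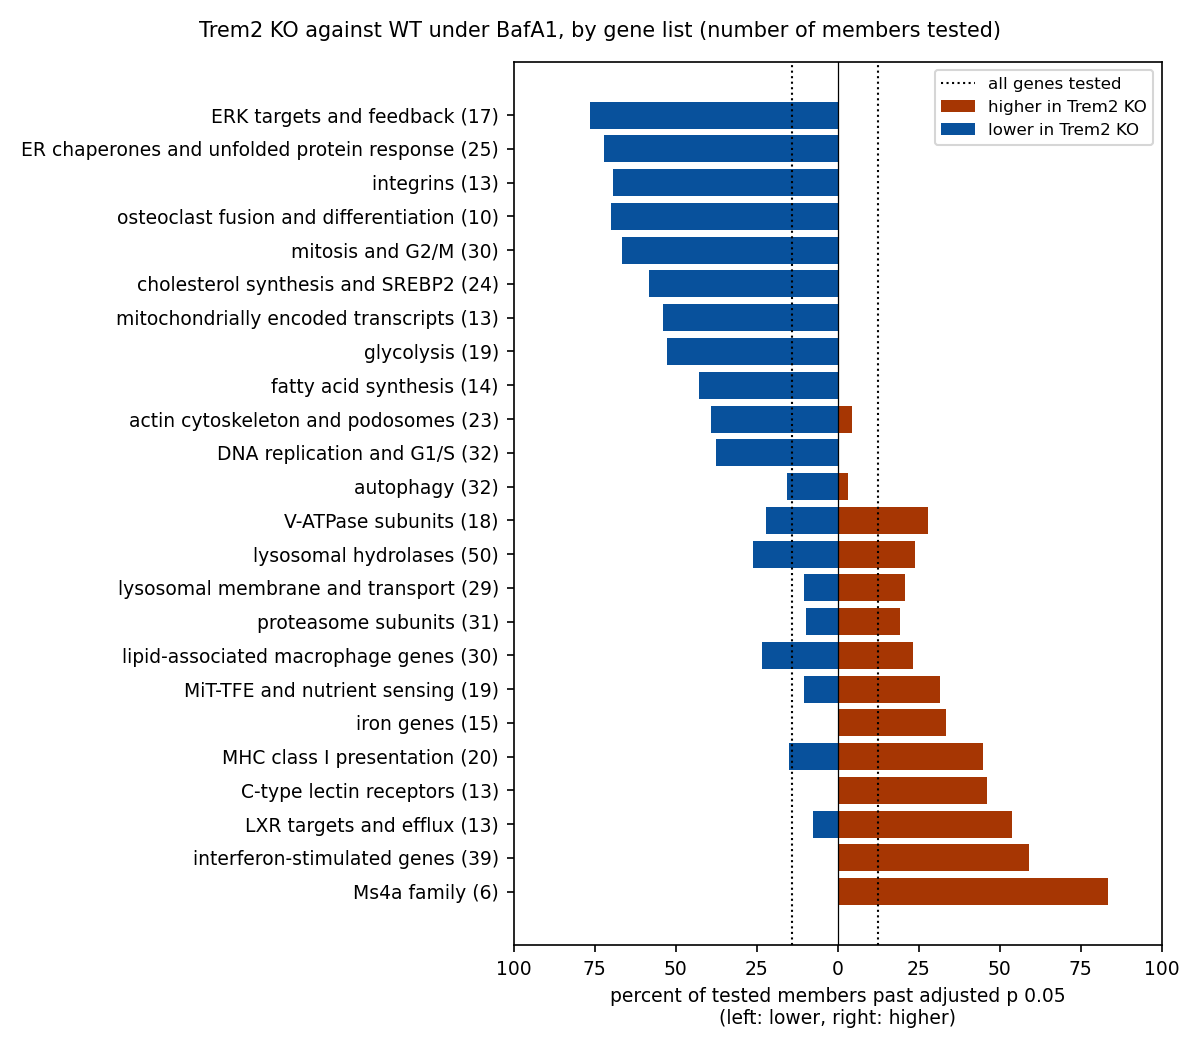
Percent of the tested members of each gene list that were higher (right, brown) or lower (left, blue) in Trem2 KO than in WT under BafA1 at an adjusted p under 0.05, with the number of tested members in brackets. Dotted lines mark the shares over all 12052 genes, 12.5% higher and 14.2% lower: 13 of 17 ERK genes and 18 of 25 ER chaperone genes were lower, and 23 of 39 interferon-stimulated genes were higher.

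Targets and feedback inhibitors of the ERK kinase pathway, which M-CSF and other growth factors activate, were the list with the highest share of lower genes among those shown. Of 17 tested members 13 were lower and 0 higher, with a median log2 difference of -0.96. Ccnd1, cyclin D1, which drives cells from G1 into S phase, stood at 105, 94.0 and 97.5 CPM in WT and at 9.11, 11.8 and 14.8 CPM in Trem2 KO. The highest knockout library was far below the lowest WT library, and the log2 difference was -3.09 (SE 0.16, adjusted p 2.3e-11). Etv5, an ETS transcription factor induced by ERK, went from 26.0, 21.1 and 20.0 CPM in WT to 2.66, 2.60 and 3.70 CPM in Trem2 KO, with -2.92 (SE 0.20, adjusted p 8.2e-10). Dusp6, the phosphatase that switches ERK off, had 33.7, 29.8 and 30.1 CPM in WT and 5.61, 4.21 and 4.17 CPM in Trem2 KO, with -2.70 (SE 0.18, adjusted p 7.1e-10). Ccnd1, Etv5 and Dusp6 were among the 12 largest decreases, for which a lack of overlap was a condition of the choice.

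The Spred and Sprouty genes, which encode inhibitors that act upstream of ERK and are themselves induced by it, were also lower. Spred2 had a log2 difference of -1.83 (SE 0.19), Spry2 of -1.36 (SE 0.17) and Spred1 of -0.77 (SE 0.087), and none of them overlapped between the genotypes. Jun, a subunit of the AP-1 transcription factor, was 241, 226 and 264 CPM in WT and 152, 199 and 173 CPM in Trem2 KO (-0.49 (SE 0.097, adjusted p 7.7e-04)). In DMSO the same gene was higher in Trem2 KO, 201 CPM against 139 CPM, and the test of the difference between the treatments gave -1.02 (SE 0.14, adjusted p 7.2e-05). Dusp6 also differed between the treatments, with a larger deficit under BafA1 (-0.85 (SE 0.25, adjusted p 0.035)), while Spred1 had a smaller one (0.49 (SE 0.12, adjusted p 0.014)). Sox4, a transcription factor of progenitor cells, was not on this list but among the 12 largest decreases, at -2.34 (SE 0.18, adjusted p 3.5e-09). The plot of the 6 list members with the smallest p under BafA1 shows their deficit in both treatments. Over the whole list 13 of 17 were lower and 2 higher in DMSO, against 16.5% and 13.8% over all genes there.

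**Figure D2:**
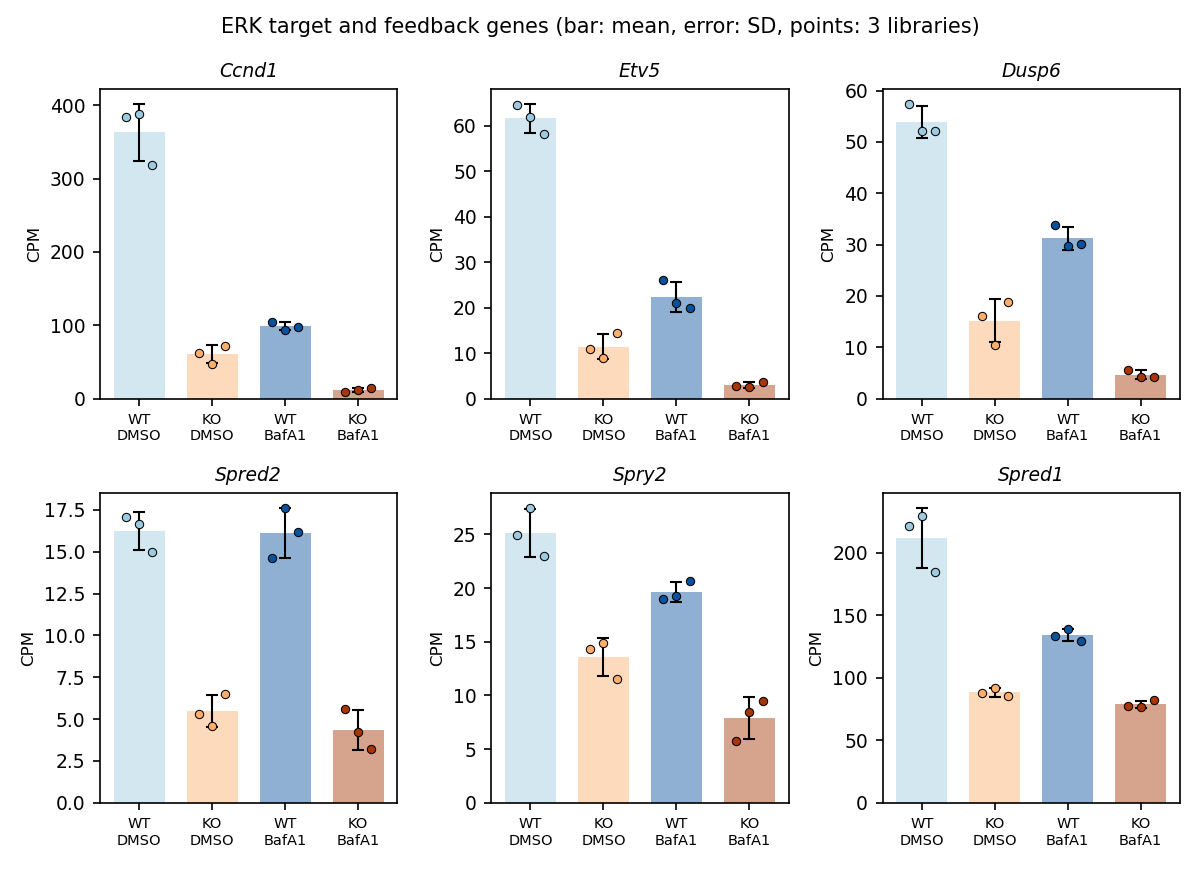
Level in CPM of 6 ERK target and feedback genes in the 4 groups, WT and Trem2 KO (KO) in DMSO and in BafA1; bars are means, error bars SD and points the 3 libraries. The genes are the 6 of the list with the smallest p under BafA1. Under BafA1 the highest Trem2 KO value of each gene lay below its lowest WT value, with log2 differences from -3.09 (Ccnd1) to -0.77 (Spred1). For Ccnd1, Etv5 and Dusp6 this lack of overlap was a condition for the 12 largest decreases.

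Genes of cell division were lower in Trem2 KO under BafA1, by less than without the drug. Of 30 tested genes of mitosis and G2/M 20 were lower and 0 higher (median -1.01), and of 32 genes of DNA replication and the G1/S step 12 were lower and 0 higher (median -0.42). Birc5, survivin, which guides chromosomes at division, went from 28.4, 22.1 and 19.5 CPM to 4.20, 3.21 and 4.4 CPM (-2.55 (SE 0.20, adjusted p 4.6e-09)). Top2a, the topoisomerase of dividing cells, went from 38.8, 30.4 and 33.9 CPM to 9.81, 9.62 and 10.9 CPM (-1.77 (SE 0.14, adjusted p 6.8e-09)). Top2a separated the genotypes in all 6 libraries, and for Birc5 a lack of overlap was a condition for the 12 largest decreases. The mitotic kinase Plk1 was rare under BafA1, with means of 6.75 ± 0.913 CPM in WT and 1.16 ± 0.336 CPM in Trem2 KO (-2.46 (SE 0.36, adjusted p 3.1e-05)). Cdk1, the kinase that starts mitosis and one of the 3 most abundant members, was lower at -0.82 (SE 0.16).

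In DMSO all 30 mitosis genes and 30 of the 32 replication genes were lower in Trem2 KO (background 16.5% lower and 13.8% higher), with medians of -3.01 and -1.48. Summed levels of the mitosis list in WT were 896 to 1006 CPM in DMSO and 191 to 230 CPM under BafA1. In Trem2 KO they were 119 to 137 CPM in DMSO and 88.8 to 102 CPM under BafA1. Both genotypes thus had less under BafA1, and the smaller gap there was not a rise in Trem2 KO. The test of the difference between the treatments was positive for 18 mitosis genes and 19 replication genes and negative for 0, against 4.88% and 3.93% over all genes. Cenpf, a kinetochore protein, was 10.6, 7.52 and 10.9 CPM in WT and 10.7, 6.41 and 7.87 CPM in Trem2 KO under BafA1 (-0.17 (SE 0.24, adjusted p 0.64)), and the libraries overlapped. In DMSO its difference was -2.82, so the difference between the treatments reached 2.64 (SE 0.35, adjusted p 4.8e-05). Other genes with large positive values of that test were Ccna2, cyclin A2, at 2.65 (SE 0.66, adjusted p 0.014), and Mki67, the proliferation marker Ki-67, at 2.45 (SE 0.38, adjusted p 2.5e-04). Spc25, another kinetochore protein, had 2.31 (SE 0.23, adjusted p 1.7e-06), and Pcna, the sliding clamp of DNA polymerase, 0.77 (SE 0.11, adjusted p 1.5e-04). Spc25 (0.15, adjusted p 0.56) and Pcna (-0.04, adjusted p 0.78) did not pass the test under BafA1.

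CDK inhibitors and D and E cyclins gave 3 lower and 0 higher of 11 tested. The lower ones were Ccnd1, which is also counted among the ERK genes above, Ccnd3 and Cdkn1c. Ccnd3, cyclin D3, was lower at -0.95 (SE 0.14, adjusted p 3.1e-05). Cdkn1c, the CDK inhibitor p57, was 411, 436 and 429 CPM in WT and 286, 343 and 364 CPM in Trem2 KO, lower by a small margin (-0.36 (SE 0.089, adjusted p 0.0042)) without overlap. In DMSO it had been higher in Trem2 KO (70.6 against 17.4 CPM), and the difference between the treatments was -2.38 (SE 0.15, adjusted p 2.9e-09). Of 14 tested p53 targets 2 were higher and 2 lower.

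Endoplasmic reticulum (ER) chaperones, the proteins that fold secretory and membrane proteins and that rise when unfolded protein accumulates, were lower in Trem2 KO under BafA1. Of 25 tested members 18 were lower and 0 higher (median -0.46). In DMSO 3 were lower and 1 higher (median -0.02), against 16.5% lower and 13.8% higher over all genes there. Hspa5, the main ER chaperone BiP, had 3375, 3243 and 3283 CPM in WT and 2576, 2019 and 1998 CPM in Trem2 KO. All 3 knockout libraries lay below all WT libraries (-0.59 (SE 0.091, adjusted p 5.9e-05)). In DMSO its levels were 957 CPM in WT and 1003 CPM in Trem2 KO (0.07 (SE 0.091, adjusted p 0.62)), and the difference between the treatments was -0.65 (SE 0.13, adjusted p 0.0025).

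Sdf2l1, a cofactor of ER chaperones, showed a larger gap, from 103, 109 and 106 CPM to 61.4, 41.3 and 42.1 CPM (-1.11 (SE 0.12, adjusted p 6.1e-07)). Hyou1, a nucleotide exchange factor of BiP, was lower at -0.80 (SE 0.11). The disulfide isomerases P4hb and Pdia6 had -0.56 (SE 0.083) and -0.58 (SE 0.089), and Hsp90b1, the ER HSP90, -0.53 (SE 0.099). Calr, the calcium-binding chaperone calreticulin, was 1432, 1407 and 1501 CPM in WT and 1219.7, 911 and 890.1 CPM in Trem2 KO (-0.52 (SE 0.10, adjusted p 5.7e-04)). In all of these genes Trem2 KO replicate 1 was the highest knockout library, still below the WT range. The difference between the treatments passed the test for 9 of the 25 members, each time negative, against 3.93% negative over all genes. Among them were Sdf2l1 (-0.82 (SE 0.20, adjusted p 0.012)), P4hb (-0.54 (SE 0.12, adjusted p 0.0073)), Calr (-0.46 (SE 0.14, adjusted p 0.048)) and Herpud1, a component of ER-associated degradation (-0.64 (SE 0.16, adjusted p 0.013)).

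**Figure D3:**
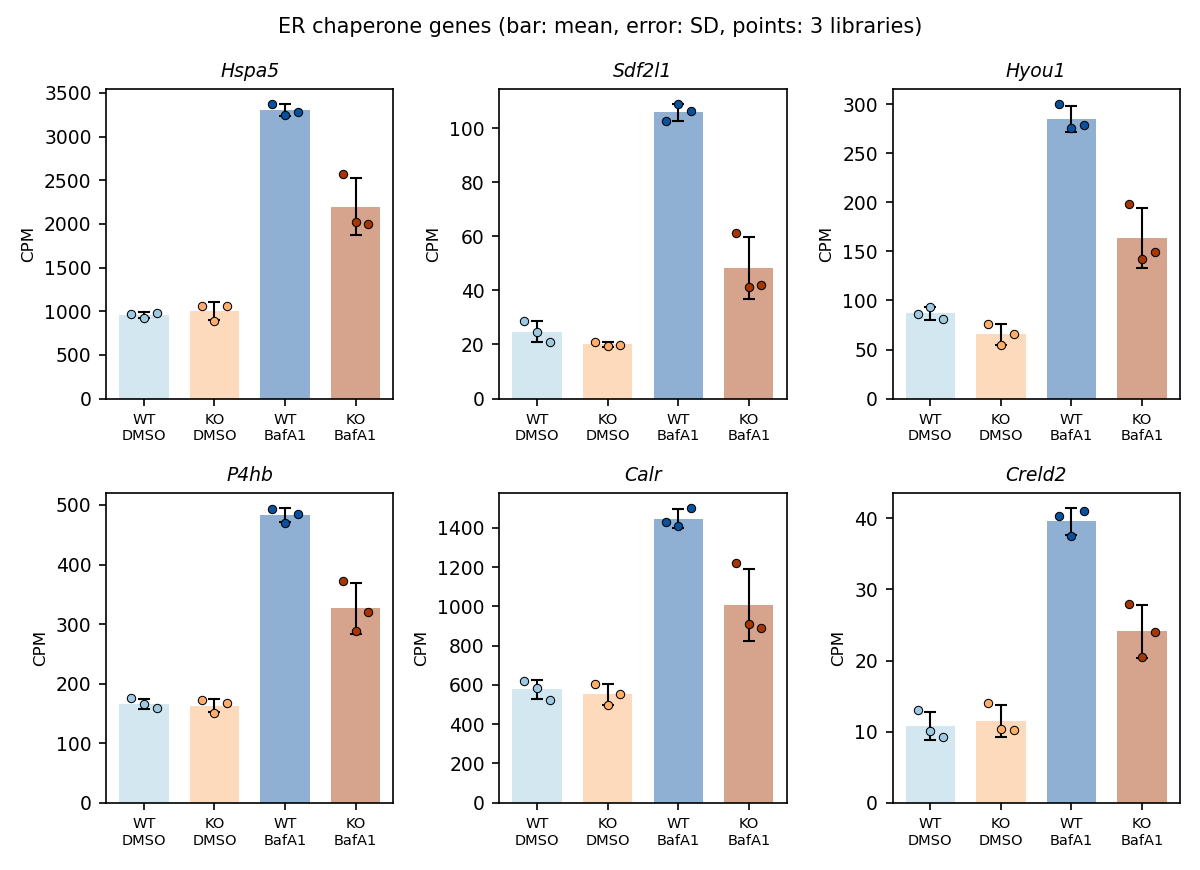
Level in CPM of 6 ER chaperone genes in the 4 groups, WT and Trem2 KO (KO) in DMSO and in BafA1; bars are means, error bars SD and points the 3 libraries. The genotypes lie apart under BafA1, as in Hspa5 (3300.4 ± 67.8 CPM in WT, 2198 ± 328 CPM in Trem2 KO, n = 3 each), and their means in DMSO were 957 and 1003 CPM.

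The ER stress response element, CCAAT and CCACG with 9 bases of any kind between them, is the promoter sequence through which ATF6 and NF-Y are known to induce these chaperones, and it is shown here because the chaperone genes moved together. It was searched on both strands of the 250 bases before each gene's start in RefSeq promoters (GRCm38.p6). It occurred in 37 of 32851 windows (0.113%) and in 14 of 8740 tested genes with a window (0.16%). On the ER list, 8 of 22 members with a window held it (36.4%). Of these 8, 6 were among the lower genes, and of all 22 members with a window 15 were. A match describes the letters only and says nothing about binding in these cells. The stretches are written along the gene, and capitals mark the outer CCAAT and CCACG blocks or their reverse complements. Creld2 (-0.70 (SE 0.13)), an ER protein with EGF-like domains, and Dnajc3 (-0.46 (SE 0.075)), a co-chaperone of BiP, were chosen for display after their values were seen.
Hspa5 (chr2:34772020-34772048, plus strand): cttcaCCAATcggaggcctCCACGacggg
Creld2 (chr15:88819515-88819543, plus strand): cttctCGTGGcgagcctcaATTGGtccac
Pdia6 (chr12:17266486-17266514, plus strand): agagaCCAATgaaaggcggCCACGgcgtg
Dnajc3 (chr14:118937822-118937850, plus strand): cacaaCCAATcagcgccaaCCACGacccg
Calr (chr8:84847070-84847098, minus strand): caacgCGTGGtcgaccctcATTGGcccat

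Machinery next to the chaperones was counted with lists that were put together after the values were seen. Of 34 genes of the ER translocon, the signal recognition particle, the signal peptidase and the oligosaccharyltransferase 15 were lower and 3 higher (median -0.20), and the 3 became 1 without WT BafA1 replicate 1 or 3 or Trem2 KO BafA1 replicate 1. Sec61a1, the pore of the translocon, was 381, 362 and 344 CPM in WT and 193, 162 and 119.9 CPM in Trem2 KO (-1.18 (SE 0.11, adjusted p 8.1e-08)). Rpn1, a subunit of the oligosaccharyltransferase, was lower at -0.97 (SE 0.089, adjusted p 5.4e-08), and both genes stayed apart in all 6 libraries. Of 18 genes of COPII vesicles, which carry cargo from the ER to the Golgi, 10 were lower and 1 higher, and 6 were lower without Trem2 KO BafA1 replicate 3. Among them were the coat subunits Sec24d (-0.83 (SE 0.099)) and Sec31a (-0.58 (SE 0.084)).

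Genes of the integrated stress response, which works through ATF4, had a flat median but more members called higher than lower. Of 26 tested targets 7 were higher and 3 lower (median 0.00), with 4 higher without WT BafA1 replicate 1 and 5 lower without Trem2 KO DMSO replicate 2. Gdf15, a secreted stress hormone, was 234, 239 and 206 CPM in WT and 438, 633 and 489.8 CPM in Trem2 KO (1.20 (SE 0.16, adjusted p 9.7e-06)), apart in all libraries. Its excess was larger in DMSO, by the test of the difference (-1.46 (SE 0.24, adjusted p 3.8e-04)). Slc7a5, a subunit of a large amino acid transporter, was higher at 1.27 (SE 0.24, adjusted p 4.3e-04), and Psat1, an enzyme of serine synthesis, lower at -1.07 (SE 0.12, adjusted p 1.3e-06). Heat shock proteins of the cytosol and mitochondria had 1 higher and 4 lower of 18, and 2 lower without Trem2 KO BafA1 replicate 3.

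Genes of cholesterol synthesis under control of the transcription factor SREBP2 were lower in Trem2 KO. Of 24 tested members 14 were lower and 0 higher (median -0.37), and 7 were lower without Trem2 KO BafA1 replicate 3. Hsd17b7, a reductase of sterol intermediates, had 47.2, 45.6 and 48.7 CPM in WT and 28.2, 18.0 and 19.9 CPM in Trem2 KO (-1.07 (SE 0.15, adjusted p 1.7e-05)), and the genotypes did not overlap. Srebf2, which encodes SREBP2, was lower at -0.62 (SE 0.094). In DMSO 7 of the 24 were lower and 0 higher (median -0.32), against 16.5% and 13.8% over all genes. Of the 24, 1 differed between the treatments, against 8.81% over all genes.

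Genes of fatty acid synthesis moved the same way, with 6 of 14 lower and 0 higher (median -0.58). Fasn, fatty acid synthase, was 71.7, 63.5 and 64.8 CPM in WT and 35.9, 27.2 and 24.1 CPM in Trem2 KO (-1.17 (SE 0.12, adjusted p 5.0e-07)). The elongases Elovl6 (-1.73 (SE 0.31)) and Elovl5 (-0.72 (SE 0.092)) and the desaturase Scd2 (-0.75 (SE 0.15)) were lower as well. Targets of the oxysterol receptor LXR leaned the other way, with 7 higher and 1 lower of 13 (median 0.29). Apoe, the apolipoprotein that leaves the cell with cholesterol, was 1541, 1247 and 1367 CPM in WT and 1763, 3253 and 2208 CPM in Trem2 KO (0.80 (SE 0.15, adjusted p 3.4e-04)), and all knockout libraries were above all WT libraries. Abcg1, a cholesterol exporter, was higher at 0.66 (SE 0.14), Mylip, a ubiquitin ligase induced by LXR, at 0.90 (SE 0.13), and Apoc2, the cofactor of lipoprotein lipase, at 1.42 (SE 0.32). The lower member was Abca7, a lipid transporter (-1.64 (SE 0.40)).

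Lipid uptake and storage genes went both ways, with 4 higher and 5 lower of 17, and 2 higher without Trem2 KO BafA1 replicate 3. Lpl, lipoprotein lipase, was 1629.5, 1378 and 1624 CPM in WT and 234, 347 and 432 CPM in Trem2 KO (-2.20 (SE 0.14, adjusted p 2.5e-10)), with every knockout library far below the WT range. The scavenger receptor Msr1 (-1.10 (SE 0.11, adjusted p 1.2e-07)) and the fatty acid translocase Cd36 (-0.50 (SE 0.11, adjusted p 0.0019)) were lower too. Mgll, which cleaves monoacylglycerol, was 82.8 ± 13.6 CPM in WT and 30.9 ± 5.24 CPM in Trem2 KO (n = 3 each, -1.40 (SE 0.14, adjusted p 1.3e-07)). Its direction in DMSO was opposite, with 0.67 (SE 0.23, adjusted p 0.027), and the difference between the treatments was -2.08 (SE 0.26, adjusted p 3.4e-05). The fatty acid binding proteins Fabp5 (0.43 (SE 0.086, adjusted p 8.4e-04)) and Fabp4 (0.38 (SE 0.097, adjusted p 0.0062)) were higher in Trem2 KO, by less than in DMSO (-0.84 (SE 0.12, adjusted p 1.3e-04) and -0.79 (SE 0.14, adjusted p 0.0011)).

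Of 30 genes that mark lipid-associated macrophages, a state in which TREM2 is known to act, 7 were higher and 7 lower (median -0.01). Higher and lower members were thus equal in number, and Apoe, given above, was one of the higher ones (0.80, adjusted p 3.4e-04). Gpnmb, a glycoprotein that rises when lysosomes are stressed, was 11357, 10551 and 11539 CPM in WT and 9226, 10783 and 10045 CPM in Trem2 KO, and the libraries overlapped (-0.15 (SE 0.082, adjusted p 0.17)). Itgax, the integrin CD11c, was among the 12 largest decreases, with 88.8, 59.0 and 77.1 CPM in WT and 14.6, 9.22 and 7.64 CPM in Trem2 KO (-2.77 (SE 0.19, adjusted p 8.2e-10)). Cadm1, an adhesion molecule, went from 219.7 ± 23.9 CPM to 84.7 ± 5.50 CPM (n = 3 each, -1.37 (SE 0.086, adjusted p 1.7e-10)). For Cadm1 the genotypes did not overlap in any library, and for Itgax a lack of overlap was a condition for the 12 largest decreases.

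Integrin genes and genes of osteoclast fusion were called lower in most tested members. Of 13 tested integrin genes 9 were lower and 0 higher (median -0.59), as in Itgam, the integrin CD11b, at 168, 121 and 154 CPM in WT and 62.8, 52.3 and 62.8 CPM in Trem2 KO (-1.31 (SE 0.12, adjusted p 6.2e-08)). Itgav, the alpha-v chain, was -0.59 (SE 0.095), and Itgb3, the beta-3 chain, -0.67 (SE 0.11). Itgb3 had been higher in Trem2 KO in DMSO (1.16), so that the difference between the treatments was -1.83 (SE 0.24, adjusted p 4.7e-05). Of 10 genes of osteoclast fusion and differentiation 7 were lower and 0 higher (median -0.64). Itgb3, Atp6v0d2 and Mmp9 among them are also counted with the integrins, V-ATPase subunits or metalloproteinases. The smallest p was that of Dcstamp, which macrophages need to fuse. It was detected at 4.70, 3.76 and 3.30 CPM in WT and at 0.701, 0 and 0 CPM in Trem2 KO (adjusted p 1.3e-04), so 2 of 3 knockout libraries had no count.

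Of 9 metalloproteinases and their inhibitors 3 were lower and 1 higher. The metalloproteinase of macrophages Mmp12 was 724, 575 and 707 CPM in WT and 181, 194 and 206 CPM in Trem2 KO (-1.79 (SE 0.12, adjusted p 3.5e-10)). Mmp9, a gelatinase also made by osteoclasts, was rare in both groups, at 2.52, 2.26 and 1.39 CPM and 0.140, 0.200 and 0.232 CPM (-3.35 (SE 0.75, adjusted p 0.0021)), and its difference from DMSO was -2.98 (SE 0.83, adjusted p 0.027). Both separated the genotypes. Timp2, an inhibitor of such proteases, was lower at -0.41 (SE 0.090). The higher member was Mmp14, a membrane-bound metalloproteinase, at 47.5, 41.2 and 39.3 CPM in WT and 69.9, 74.5 and 44.0 CPM in Trem2 KO (0.57 (SE 0.18, adjusted p 0.025)), with overlap. It did not pass in DESeq2 or without WT BafA1 replicate 2 or 3 or Trem2 KO BafA1 replicate 1 or 2, and its difference from DMSO was -1.25 (SE 0.29, adjusted p 0.0079). Plau, urokinase, which was chosen after its values were seen, was lower at -1.74 (SE 0.11). Of 23 actin and podosome genes 9 were lower and 1 higher, and 5 were lower without WT BafA1 replicate 3. The higher gene was Fscn1, the actin-bundling protein fascin, with 0.336, 1.20 and 1.04 CPM in WT and 3.08, 4.21 and 3.01 CPM in Trem2 KO (1.95 (SE 0.40, adjusted p 0.0011)). Myo1e, a myosin of podosomes, was -1.47 (SE 0.10, adjusted p 1.3e-09), and Tln1, talin, which links integrins to actin, -0.75 (SE 0.084, adjusted p 1.1e-06). Of 12 tubulin genes, a list made after the values were seen, 9 were lower and 0 higher, among them Tubb6 (-1.12 (SE 0.16)) and Tuba1a (-1.03 (SE 0.092)); the alpha-tubulin genes are near-identical copies, so their split is uncertain.

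Transcripts of several genes of energy metabolism were lower. Of 19 glycolysis genes 10 were lower and 0 higher (median -0.40). The split in DMSO was alike, 12 lower and 2 higher (median -0.38), against 16.5% and 13.8% over all genes there. Gapdh, the dehydrogenase often used as a reference gene, was 849, 894 and 938 CPM in WT and 580.0, 459 and 489 CPM in Trem2 KO (-0.81 (SE 0.10, adjusted p 6.8e-06)). Gpi1, which isomerises glucose phosphate, was -0.89 (SE 0.091), Hk1, a hexokinase, -0.75 (SE 0.11), and Slc16a3, the lactate exporter, -0.77 (SE 0.11). Each of these 4 genes separated all 6 libraries by genotype. Of 17 other HIF targets 5 were lower and 1 higher, among them Ak4, a mitochondrial adenylate kinase, from 55.7 ± 6.50 CPM to 22.8 ± 3.64 CPM (n = 3 each, -1.27 (SE 0.14, adjusted p 6.4e-07)). Pdk1, the kinase that holds back pyruvate dehydrogenase, was -0.65 (SE 0.091), a smaller deficit than in DMSO (1.01 (SE 0.15, adjusted p 1.3e-04)).

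Messenger RNAs of the mitochondrial genome were lower in 7 of 13 and higher in 0 (median -0.26), and 4 were lower without WT BafA1 replicate 1. The complex I subunit mt-Nd4 was 1817, 1740.1 and 1759 CPM in WT and 1305, 1266 and 1141 CPM in Trem2 KO (-0.52 (SE 0.072, adjusted p 1.9e-05)), and mt-Nd2 was -0.47 (SE 0.077). The share of counts in all features of the mitochondrial genome, which includes its ribosomal RNAs, was by contrast higher in Trem2 KO, as given above. Of 25 NRF2 targets and redox genes 3 were higher and 5 lower. Mgst1, a glutathione transferase, was 0.84 (SE 0.087), and Sod1, superoxide dismutase, -0.51 (SE 0.081). The 3 became 1 without WT BafA1 replicate 1 or 2 or Trem2 KO BafA1 replicate 1 or 3, and the 5 became 2 or 3 without WT BafA1 replicate 1 or Trem2 KO BafA1 replicate 2 or 3.

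Complement genes moved in both directions, with 5 higher and 4 lower of 13 (median 0.11). The 3 chains of C1q, which starts the classical complement pathway and coats dying cells, were all higher. C1qa was 40.3, 41.2 and 41.4 CPM in WT and 101, 110.0 and 111 CPM in Trem2 KO (1.39 (SE 0.10, adjusted p 2.2e-09)), C1qb had a log2 difference of 0.84 (SE 0.093) and C1qc of 1.10 (SE 0.096). The WT libraries of C1qa were close together, and no knockout library came near them. For C1qa and C1qc the excess was larger under BafA1 than in DMSO (0.54 (SE 0.13, adjusted p 0.014) and 0.48 (SE 0.13, adjusted p 0.023)). Mertk, a receptor for dying cells, was 25.3, 28.4 and 33.0 CPM in WT and 52.4, 63.9 and 66.0 CPM in Trem2 KO (1.06 (SE 0.12, adjusted p 1.6e-06)). Its ligand Gas6 was 40.3, 47.2 and 50.2 CPM and 92.9, 109.6 and 90.8 CPM (1.09 (SE 0.11, adjusted p 2.8e-07)), and Mrc1, the mannose receptor CD206, 48.2, 45 and 37.0 CPM and 122, 138 and 91.7 CPM (1.43 (SE 0.15, adjusted p 3.6e-07)). All 3 genes separated the genotypes.

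The list of scavenger and efferocytosis receptors, which holds Mertk, Gas6 and Mrc1, had 4 higher, 8 lower and 7 not called of 19 (median -0.29). Mfge8, the bridge between dying cells and alpha-v integrins, was 1089, 855 and 978 CPM in WT and 383, 420.3 and 355 CPM in Trem2 KO (-1.33 (SE 0.11, adjusted p 1.3e-08)). Its receptor chains Itgav and Itgb3 were lower as given above. Cd300lf, a lipid-binding receptor, was 12.9, 10.5 and 14.8 CPM in WT and 54.2, 65.3 and 53.5 CPM in Trem2 KO (2.18 (SE 0.18, adjusted p 1.6e-08)), one of the 12 largest increases. Maf, a transcription factor of resident macrophages, was higher (0.88 (SE 0.12, adjusted p 2.2e-05)), with no overlap between the genotypes.

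The Ms4a genes encode membrane proteins, and in humans their locus is tied to levels of soluble TREM2. They were higher in 5 of 6 tested and lower in 0 (median 1.06). Ms4a6b was 4.36, 4.06 and 6.60 CPM in WT and 22.4, 29.0 and 40.8 CPM in Trem2 KO, the largest increase that met the conditions for naming (2.59 (SE 0.20, adjusted p 6.4e-09)). Ms4a7 was 726, 782 and 768 CPM and 1254, 1371 and 1791 CPM (0.96 (SE 0.098, adjusted p 3.3e-07)). Ms4a6c (1.16 (SE 0.080)), Ms4a6d (0.57 (SE 0.096)) and the rare Ms4a4c (2.67 (SE 0.50)) were higher too, and none of the 5 overlapped. Ms4a6b had a smaller excess in DMSO (1.29 (SE 0.25, adjusted p 0.0021)). C-type lectin receptors were higher in 6 of 13 and lower in 0 (median 0.38). Clec4n, Dectin-2, which binds fungal mannans, was 9.06, 8.87 and 7.30 CPM in WT and 35.7, 33.9 and 40.1 CPM in Trem2 KO (2.11 (SE 0.23, adjusted p 7.0e-07)), and Clec4a1 was 1.09 (SE 0.21).

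Other surface receptors went in both directions. Of 14 chemokine and chemoattractant receptors 4 were higher and 2 lower, and 2 were higher without WT BafA1 replicate 2. Cx3cr1, the fractalkine receptor, was 58.1, 38.0 and 36.3 CPM in WT and 19.5, 13.6 and 17.8 CPM in Trem2 KO (-1.36 (SE 0.22, adjusted p 1.1e-04)), and C5ar1, the receptor of complement C5a, -0.99 (SE 0.15, adjusted p 4.2e-05). The rare Ccr7, which guides cells to lymph nodes, was higher at 2.36 (SE 0.56). Csf1r, the M-CSF receptor, was 477, 455 and 418 CPM in WT and 361, 323 and 270.5 CPM in Trem2 KO (-0.50 (SE 0.086, adjusted p 2.0e-04)), without overlap, and Csf2ra, the GM-CSF receptor chain, was lower at -0.95 (SE 0.095, adjusted p 2.3e-07). On the list of colony-stimulating factor genes and receptors, which holds both, 3 of 9 were lower and 3 higher, and 1 to 3 were higher over the settings tried. Of 7 Fc gamma receptor genes 2 were higher and 1 lower. The higher ones were Fcgr2b, the inhibitory one (0.63 (SE 0.14)), and Fcrls, an Fc receptor-like molecule of microglia (2.22 (SE 0.31)). The lower one was more abundant than either, with means of 410 CPM in WT and 306 CPM in Trem2 KO. Cd14, the co-receptor of bacterial lipopolysaccharide, was lower under BafA1 (-0.61 (SE 0.14)), where its difference from DMSO was -0.60 (SE 0.18, adjusted p 0.037), and Tlr2, a receptor of bacterial lipopeptides, was higher at 0.62 (SE 0.12).

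**Figure D4:**
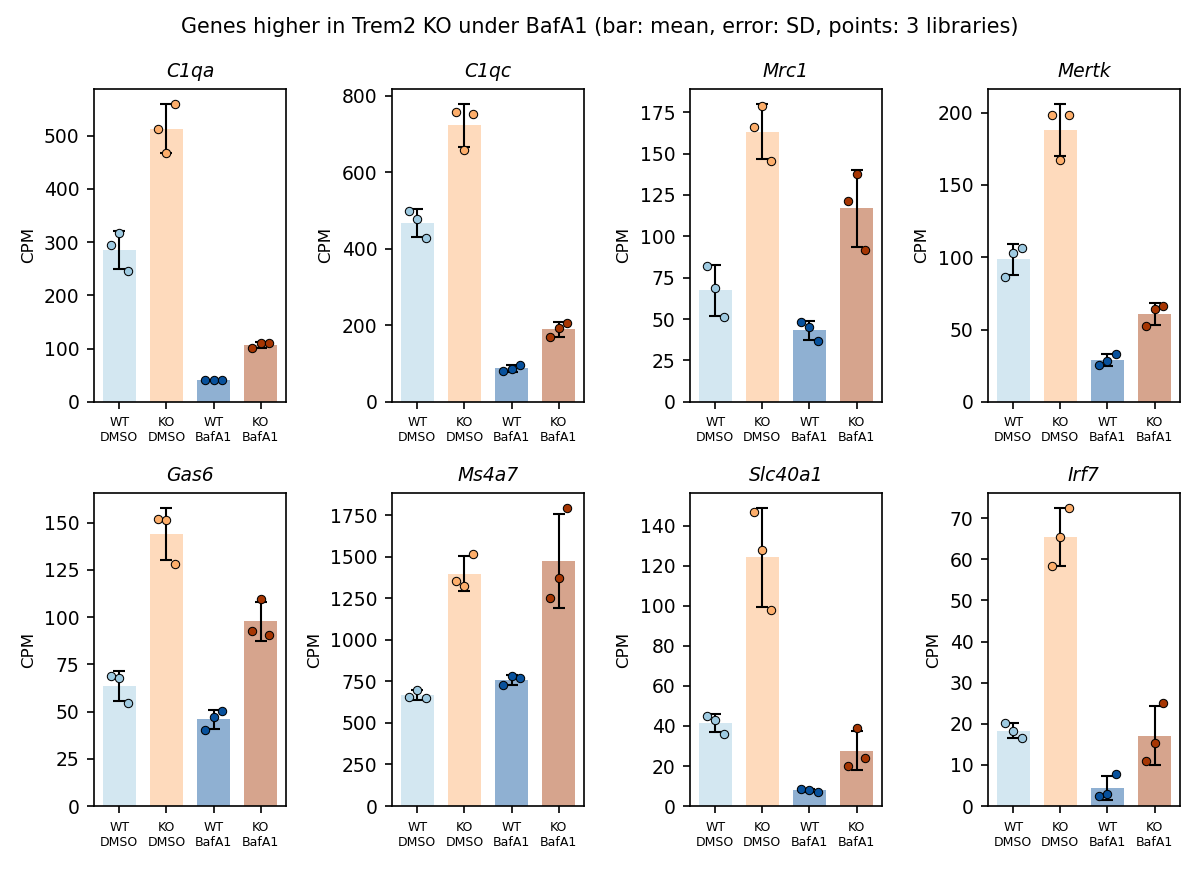
Level in CPM of 8 genes that were higher in Trem2 KO under BafA1, in WT and Trem2 KO (KO) cells given DMSO or BafA1; bars are means, error bars SD and points the 3 libraries. In each of the 8 genes all 3 Trem2 KO BafA1 libraries lie above all 3 WT BafA1 libraries, with log2 differences from 0.96 (Ms4a7) to 1.91 (Irf7).

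Interferon-stimulated genes, the antiviral programme that interferons switch on, were higher in Trem2 KO under BafA1. Of 39 tested members 23 were higher and 0 lower (median 0.57). The count of higher members was 13 without Trem2 KO BafA1 replicate 3, 14 without WT BafA1 replicate 1 and 15 without WT BafA1 replicate 2 or Trem2 KO BafA1 replicate 2. Irf7, the factor that amplifies interferon production, was 2.52, 3.01 and 7.82 CPM in WT and 11.1, 15.2 and 25.0 CPM in Trem2 KO (1.91 (SE 0.31, adjusted p 8.9e-05)). Ifit1, which binds foreign RNA, was 2.01, 2.41 and 4.0 CPM and 6.59, 10.0 and 8.10 CPM (1.54 (SE 0.28, adjusted p 3.4e-04)), and Rsad2, viperin, 46.1, 45 and 56.6 CPM and 67.3, 117 and 98.2 CPM (0.92 (SE 0.16, adjusted p 2.7e-04)). The genotypes did not overlap in these 3 genes. Bst2, tetherin (0.42 (SE 0.086)), and Rtp4 (0.93 (SE 0.19)) were higher as well. In DMSO 33 of the 39 were higher and 1 lower (median 0.83), against 13.8% and 16.5% over all genes. The difference between the treatments passed the test for 2 members, both negative, against 3.93% negative over all genes. Ly6e, an interferon-inducible surface protein outside the list, was 9.40, 19.1 and 27.5 CPM in WT and 79.5, 82.9 and 91.5 CPM in Trem2 KO (2.18 (SE 0.18, adjusted p 1.7e-08)).

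The core of the interferon-stimulated response element, GAAA and GAAA with 2 bases of any kind between them, was searched in the same promoter windows and on both strands, since these genes moved together. It occurred in 978 of 32851 windows (2.98%) and in 298 of 8740 tested genes with a window (3.41%). On the list, 13 of 28 members with a window held it (46.4%). Of these 13, 10 were among the higher genes, and of all 28 members with a window 18 were. Stretches of the promoters of Ifit1, Rsad2 and Bst2 are written along each gene from RefSeq (GRCm38.p6), and capitals mark the GAAA blocks of each match or their reverse complement TTTC. They show the letters only. Neighbouring matches may overlap, as in Bst2.
Ifit1 (chr19:34640770-34640828, plus strand): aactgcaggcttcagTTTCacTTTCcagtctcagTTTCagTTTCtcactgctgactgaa
Rsad2 (chr12:26456548-26456587, minus strand): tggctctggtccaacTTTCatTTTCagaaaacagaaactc
Bst2 (chr8:71537572-71537617, minus strand): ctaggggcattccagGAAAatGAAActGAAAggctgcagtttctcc

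Genes of antigen presentation differed by class. Of 20 MHC class I genes 9 were higher and 3 lower (median 0.25), and 5 were higher without WT BafA1 replicate 1. The lower ones included Calr, which is also counted among the ER chaperones. H2-Q7, a non-classical class I gene, was 35.7, 38.2 and 32.7 CPM in WT and 60.8, 103 and 77.1 CPM in Trem2 KO (1.16 (SE 0.18, adjusted p 6.0e-05)), although reads may be split between it and its near copies. Tapbp, tapasin, which loads peptide in the ER, was 402, 386 and 356 CPM and 261, 209.8 and 192 CPM (-0.78 (SE 0.094, adjusted p 2.7e-06)), lower without overlap. Its difference from DMSO was -0.96 (SE 0.13, adjusted p 9.7e-05). Of 8 MHC class II genes 0 were higher and 1 lower, whereas in DMSO 4 were higher and 0 lower (over all genes 13.8% and 16.5% there). The class II gene H2-Eb1 was 0.38 (SE 0.15, adjusted p 0.055) under BafA1 (0.53 and past the threshold without WT BafA1 replicate 1) and 1.83 (SE 0.13, adjusted p 6.4e-10) in DMSO, and the difference between the treatments was -1.44 (SE 0.20, adjusted p 8.7e-05). The guanylate-binding proteins Gbp2 (-1.08 (SE 0.21, adjusted p 5.7e-04)) and Gbp5 (-1.0 (SE 0.27, adjusted p 0.0078)), which act at membranes of pathogen vacuoles, were lower under BafA1. On the list of GBP and IRG GTPases, which holds both, 2 of 12 were lower and 2 higher (median 0.32), and 0 to 3 were higher over the settings tried. The higher members were Irgm2, at 4.20, 4.66 and 7.12 CPM in WT and 7.29, 9.02 and 8.34 CPM in Trem2 KO (0.62 (SE 0.22, adjusted p 0.044)), and the rare Tgtp2, at 0.168, 0 and 0.348 CPM and 2.10, 1.00 and 0.695 CPM (adjusted p 0.0076), which may share reads with its near copy Tgtp1. Irgm2 did not pass in DESeq2, limma-voom, 3 other settings or without any one of 6 libraries, the lowest at 0.48 without WT BafA1 replicate 1, and Tgtp2 did not pass without Trem2 KO BafA1 replicate 1. Gbp2 and Gbp5 both differed from DMSO (-1.85 (SE 0.38, adjusted p 0.0031) and -1.88 (SE 0.44, adjusted p 0.0096)), where neither passed the test (0.77 and 0.88).

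Lysosomal genes, those closest to the target of BafA1, were divided. Of 18 tested V-ATPase subunits 5 were higher and 4 lower (median 0.05), and the 5 became 2 without WT BafA1 replicate 1 or Trem2 KO BafA1 replicate 3 and 3 without WT BafA1 replicate 2. The 4 became 2 without WT BafA1 replicate 1 or Trem2 KO BafA1 replicate 1. The membrane-domain subunits differed among themselves. Atp6v0a1 was 269, 246 and 230.2 CPM in WT and 160.3, 168 and 169 CPM in Trem2 KO (-0.58 (SE 0.081, adjusted p 1.7e-05)), and Atp6v0d2, the isoform of osteoclasts, 446, 439.6 and 469 CPM and 298, 377 and 358 CPM (-0.39 (SE 0.081, adjusted p 1.0e-03)). Tcirg1, the a3 isoform, was higher at 0.34 (SE 0.080, adjusted p 0.0031). None of the 3 overlapped between the genotypes. Atp6v0d2 turned against DMSO, where it was higher in Trem2 KO (0.29), and that difference was -0.69 (SE 0.11, adjusted p 5.7e-04). It was not alone: of the 18 subunits 6 had a negative difference between the treatments and 0 a positive one. Over all genes these shares were 3.93% and 4.88%. In DMSO 11 of the 18 were higher and 2 lower, against 13.8% and 16.5%.

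Of 50 lysosomal hydrolases and cofactors 12 were higher and 13 lower (median -0.04), and 7 were higher without WT BafA1 replicate 2. A negative difference between the treatments was called for 9 of the 50 and a positive one for 1, against 3.93% and 4.88% over all genes. Ctsh, the aminopeptidase cathepsin H, was 91.3, 103 and 96.8 CPM in WT and 197, 169 and 196 CPM in Trem2 KO (0.95 (SE 0.087, adjusted p 6.0e-08)), and Lgmn, legumain, which activates cathepsins, was 0.51 (SE 0.078). Asah1, acid ceramidase, was higher at 0.43 (SE 0.078). Ids, a sulfatase of glycosaminoglycans, was 97.3, 97.6 and 97.3 CPM and 65.4, 69.5 and 55.3 CPM (-0.61 (SE 0.085, adjusted p 1.7e-05)), lower in every knockout library. Ctsd, cathepsin D, one of the most abundant of the list, did not pass the test (-0.03 (SE 0.072, adjusted p 0.8)). Of 29 lysosomal membrane and transport genes 6 were higher and 3 lower, and 1 lower without WT BafA1 replicate 1. The cation channel Mcoln3 had the largest difference of these, from 2.35, 4.06 and 2.78 CPM to 10.7, 19.0 and 12.5 CPM (2.16 (SE 0.32, adjusted p 3.2e-05)).

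Of 32 autophagy genes 1 was higher and 5 lower (median 0.04), and Ulk1, the kinase that starts autophagy, was lower at -0.56 (SE 0.13). Among 19 MiT-TFE factors, which control lysosome genes, and their nutrient-sensing regulators 6 were higher and 2 lower (median 0.02). Rragd, a Rag GTPase that these factors induce, was 82.7, 86.3 and 82.7 CPM in WT and 154, 149 and 163 CPM in Trem2 KO (0.89 (SE 0.093, adjusted p 4.7e-07)). Tfec, the macrophage member of the factor family, was higher at 1.02 (SE 0.18), and Flcn, folliculin, the GTPase activator for RagC and RagD, at 0.38 (SE 0.096). All 3 were apart in the 6 libraries. The excess of Rragd and Flcn was smaller than in DMSO (-0.71 (SE 0.15, adjusted p 0.0051) and -0.64 (SE 0.14, adjusted p 0.0055)). Of 31 proteasome subunits 6 were higher and 3 lower, and the 3 became 1 without any one of WT BafA1 replicates 1 and 2 and Trem2 KO BafA1 replicates 1 and 3. Of 13 galectins and lysosomal damage genes 3 were higher and 2 lower.

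Of 15 tested iron genes 5 were higher and 0 lower (median 0.14), and 3 were higher without WT BafA1 replicate 1 or 3 or Trem2 KO BafA1 replicate 1 or 3. Tfrc, the transferrin receptor that brings iron in, was 264, 277 and 254 CPM in WT and 576, 533 and 511 CPM in Trem2 KO (1.03 (SE 0.080, adjusted p 4.7e-09)). Slc40a1, ferroportin, which lets iron out, was 8.56, 8.12 and 6.95 CPM and 20.2, 38.9 and 24.1 CPM (1.79 (SE 0.23, adjusted p 5.7e-06)). Importer and exporter were thus both higher, each without overlap, and Tfrc had a larger excess than in DMSO (0.61 (SE 0.11, adjusted p 0.0015)). Selenop, which carries selenium, was 147, 146 and 137 CPM and 308, 388 and 496 CPM (1.46 (SE 0.13, adjusted p 3.5e-08)).

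Inflammatory genes moved in both directions. Of 25 cytokines and NF-kB targets 4 were higher and 3 lower (5 without Trem2 KO BafA1 replicate 1), and of 16 chemokine ligands 2 were higher and 3 lower. Il1rn, the interleukin-1 receptor antagonist, was higher at 0.68 (SE 0.13, adjusted p 3.7e-04). Saa3, an acute-phase protein, was 61.4, 41.5 and 43.8 CPM in WT and 17.1, 19.4 and 30.6 CPM in Trem2 KO (-1.16 (SE 0.29, adjusted p 0.0057)), without overlap, and in DMSO it was higher in Trem2 KO (1.51), so that the difference between the treatments was -2.67 (SE 0.48, adjusted p 0.0011). Ccl5, a chemokine for T cells, had means of 19.5 ± 1.35 CPM in WT and 19.3 ± 0.985 CPM in Trem2 KO under BafA1 (n = 3 each, -0.01 (SE 0.16, adjusted p 0.97)) and an excess in Trem2 KO in DMSO (2.13), with a difference of -2.14 (SE 0.25, adjusted p 1.2e-05). For Csf1, the M-CSF gene, the values were -0.12 (SE 0.24, adjusted p 0.76) under BafA1, 2.33 (SE 0.28, adjusted p 9.0e-07) in DMSO and -2.45 (SE 0.37, adjusted p 2.5e-04) for the difference. Of 12 eicosanoid genes 4 were lower and 0 higher, and 2 without WT BafA1 replicate 1 or Trem2 KO BafA1 replicate 1, with Ptges, the inducible prostaglandin E synthase, at -1.04 (SE 0.28).

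Granulocyte markers were higher in 4 of 9 tested and lower in 0 (median 1.21), and without Trem2 KO BafA1 replicate 3 only S100a9 remained called. S100a9, a calcium-binding protein of neutrophils and monocytes, was 7.72, 7.67 and 7.99 CPM in WT and 15.6, 24.8 and 34.7 CPM in Trem2 KO (1.63 (SE 0.28, adjusted p 1.7e-04)), and its partner S100a8 was 34.9, 34.9 and 44.7 CPM and 48.5, 56.1 and 74.3 CPM (0.63 (SE 0.17, adjusted p 0.0079)). Without that library the S100a8 value of 0.45 no longer passed. The remaining 7 of the 16 markers did not reach the filter, among them the granule proteases and oxidases of precursors such as Elane and Mpo, with 2 counts each over the 6 libraries.

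Several of the largest single differences lay outside these lists. Efr3b, which anchors a lipid kinase at the plasma membrane, was 27.2, 27.8 and 30.1 CPM in WT and 1.12, 2.60 and 2.08 CPM in Trem2 KO (-3.93 (SE 0.24, adjusted p 1.4e-10)). Nptx1, a pentraxin first described in neurons, was 21.3, 20.0 and 19.8 CPM and 0.841, 1.80 and 2.32 CPM (-3.72 (SE 0.27, adjusted p 1.7e-09)). Both were nearly absent from the knockout libraries and were also lower in DMSO (-4.00 and -3.55). Cpe, a carboxypeptidase of prohormones, was -2.81 (SE 0.20), Wdfy1, a protein of endosomes, -2.53 (SE 0.14), and Ptchd1, a membrane protein with a patched domain, -2.37 (SE 0.13). Prr12 met the rule only through 1 library: it was 10.9, 97.4 and 10.4 CPM in WT and 8.13, 8.41 and 4.17 CPM in Trem2 KO, and without WT BafA1 replicate 2 its log2 difference of -0.59 did not pass (adjusted p 0.077). Among the increases were Ctla2b, an inhibitor of cysteine proteases (2.18 (SE 0.27)), Arhgap19, a GTPase-activating protein (2.08 (SE 0.17)), and Aif1, the actin-binding protein IBA1 (1.55 (SE 0.25)). Rn7s6, a copy of 7SL RNA, was also higher (1.80 (SE 0.21)), but such copies share reads and this value is uncertain.

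The genotype difference under BafA1 was then set beside that in DMSO, which rests on the other 6 libraries. In DMSO 3649 genes were called (30.3%), with 1666 higher (13.8%) and 1983 lower (16.5%). Of the 1507 genes higher under BafA1 658 (43.7%) were also higher in DMSO, 26 were lower and 823 were not called. Of the 1716 genes lower under BafA1 919 (53.6%) were also lower in DMSO, 50 were higher and 747 were not called. Taken from the DMSO side, these 658 were 39.5% of the genes higher there and these 919 were 46.3% of the genes lower there. The difference between the treatments itself passed the test for 1062 genes (8.81%), positive for 588 (4.88%) and negative for 474 (3.93%), and 325 of them (2.70%) differed by at least 2-fold between the treatments. The plot of both differences by list shows mitosis genes nearer to 0 under BafA1 than in DMSO and ER chaperone genes farther below 0.

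**Figure D5:**
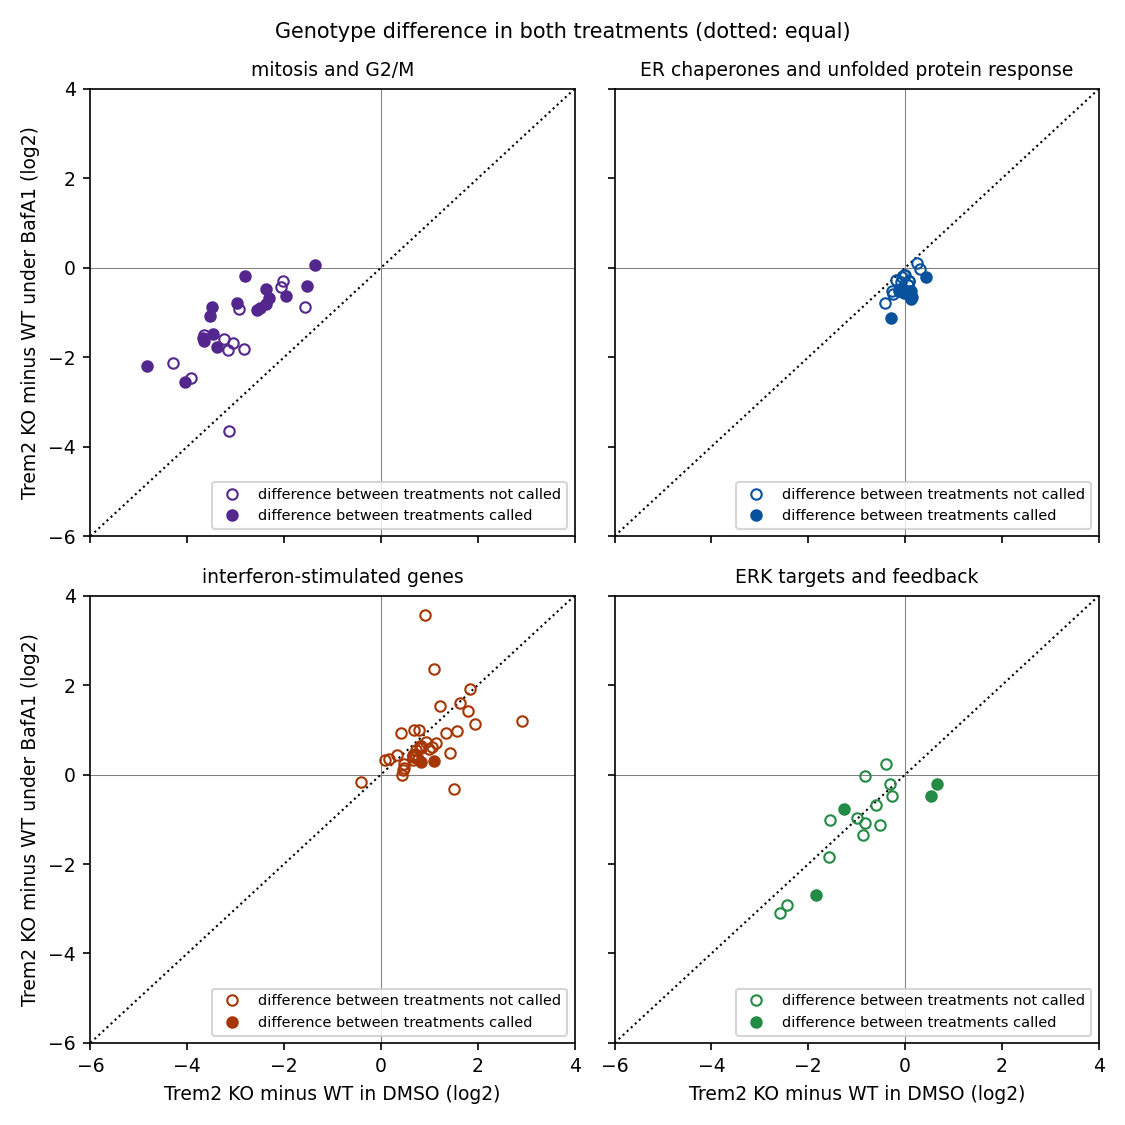
Log2 difference between Trem2 KO and WT under BafA1 (vertical axis) against that in DMSO (horizontal axis) for the tested members of 4 gene lists; the dotted line marks equal differences. Filled points are members whose difference between the treatments passed an adjusted p of 0.05: 18 of 30 mitosis genes (all above the line), 9 of 25 ER chaperone genes (all below it), 2 of 39 interferon-stimulated genes and 4 of 17 ERK genes. Over all genes 8.81% passed.

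At the negative end of that test, Dio2, Gprc5b and Pdpn had an excess in Trem2 KO in DMSO that was smaller or not called under BafA1. Saa3, Cdkn1c and Mgll were higher in Trem2 KO in DMSO and lower under BafA1, and Mmp9 was lower under BafA1 and did not pass in DMSO (-0.36). Dio2, a deiodinase of thyroid hormone, was 342, 302 and 319 CPM in WT and 224, 327 and 207 CPM in Trem2 KO under BafA1, overlapping (-0.35 (SE 0.15, adjusted p 0.097)), against 29.6 and 144 CPM on average in DMSO (-2.62 (SE 0.24, adjusted p 1.0e-06)). Under BafA1 Dio2 passed, and was lower, with the replicate block (-0.37, adjusted p 0.0471 by edgeR), with only the 6 BafA1 libraries (-0.35), without the filter (-0.37), and without Trem2 KO BafA1 replicate 2 (-0.57) or Trem2 KO DMSO replicate 2 (-0.35). Gprc5b, an orphan receptor, had -1.98 (SE 0.22, adjusted p 8.6e-06), and Pdpn, podoplanin, -1.87 (SE 0.25, adjusted p 4.7e-05). The test was positive for Uhrf1, which maintains DNA methylation in S phase, at 2.19 (SE 0.47, adjusted p 0.0049), for Prc1, a protein of the dividing spindle, at 2.11 (SE 0.40, adjusted p 0.002), and for Ccnb1, cyclin B1, at 2.02 (SE 0.51, adjusted p 0.014). Hpgd, which breaks down prostaglandins, was positive as well (2.38 (SE 0.66, adjusted p 0.027)), with levels under BafA1 of 0.974 ± 0.838 CPM in WT and 2.18 ± 0.438 CPM in Trem2 KO (n = 3 each).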

How the data were processed

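Bulk RNA of mouse macrophage cultures was sequenced from 3′ ends with molecular identifiers (QuantSeq), per the labels' protocols. The deposited table holds estimated counts per gene, not normalized, made with Salmon on GRCm39 per the submitters' processing notes; 42.0% of the values above 0 were not whole (tolerance 1e-06). Neither the annotation nor any removal of duplicates is stated in the sources used here. The design had assumed whole counts, so estimated counts were rounded. A deposited table of log2 CPM was recomputed within 0.00045 and not used for tests. Of the symbols in the deposited gene table, 148 repeat an earlier entry.

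Genes were filtered (filterByExpr, minimum count 10, minimum total 15) and tested by edgeR 4.0.16 (R 4.3.3). TMM factors and a quasi-likelihood fit over all 12 libraries were used, with a mean per group, no block, Benjamini-Hochberg adjustment over 12052 genes and a threshold of 0.05. The contrasts were Trem2 KO minus WT under BafA1, the same in DMSO, and their difference, the test named difference between the treatments. Standard errors were derived from each fitted difference and its F value. CPM values use TMM library sizes, and precision for rare genes is limited by counting error. P-values measure the spread between these cultures, whose common biological coefficient of variation was 0.080. No pair of replicates agreed within sampling noise (chi-square of 2.24 to 5.96 per degree of freedom).

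The gene lists and the members described were chosen with earlier results of these data known. Named genes were Trem2, the 12 largest increases and 12 largest decreases without overlap and with a mean of 20 CPM or more in the higher genotype, and per list the 6 with the smallest p and the 3 most abundant. The 8 most positive and 8 most negative genes of the difference between the treatments were added, with predicted genes left out; genes outside the rule are said to be chosen after their values were seen. In simulated data of 12052 genes, 67, 67 and 66 genes were changed 1.5-fold, 2-fold and 4-fold, a smaller share than was called in the real data. The fit found 62.7%, 85.1% and 93.9% of them for the BafA1 contrast, with 4.73% false calls. For the difference between the treatments it found fewer, 38.8%, 71.6% and 84.85%, with 6.5% false calls. Alternatives were other normalizations, DESeq2 1.42.0, limma-voom (limma 3.58.1), other filters, only the 6 libraries, a 2-fold limit, a replicate block, leaving out each library and, chosen after seeing the data, leaving out features of mitochondrial, ribosomal and 7S RNA. Some genes that the rule names are not reported here.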

Additional observations from a re-analysis of the deposited data

Results flagged for a closer look

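The genotype difference under BafA1 differed from that in DMSO for 1062 genes by edgeR's test of the difference between the treatments. The described genes among them follow with the log2 difference under BafA1 minus that in DMSO in brackets. No explanation was tested for any of them.

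Values were positive in the cell division genes Ccna2 (2.65), Cenpf (2.64), Mki67 (2.45), Spc25 (2.31), Uhrf1 (2.19), Prc1 (2.11), Ccnb1 (2.02), Top2a (1.62), Birc5 (1.5), Cdk1 (1.56) and Pcna (0.77). They were negative in the ER chaperone genes Sdf2l1 (-0.82), Creld2 (-0.81), Hspa5 (-0.65), Herpud1 (-0.64), P4hb (-0.54), Calr (-0.46) and Dnajc3 (-0.36) and in Sec61a1 (-0.60), Rpn1 (-0.43) and Sec31a (-0.40) of the translocon, glycosylation and vesicle coat. Among ERK genes and CDK inhibitors the values were Cdkn1c (-2.38), Jun (-1.02), Dusp6 (-0.85) and Spred1 (0.49).

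Immune genes with a negative value were Saa3 (-2.67), Ccl5 (-2.14), Csf1 (-2.45), Gbp5 (-1.88), Gbp2 (-1.85), H2-Eb1 (-1.44), H2-Q7 (-1.22), Tapbp (-0.96), S100a8 (-0.82) and Cd14 (-0.60). Among lipid, lysosome and adhesion genes the negative values were Mmp9 (-2.98), Mgll (-2.08), Mmp14 (-1.25), Itgb3 (-1.83), Fabp5 (-0.84), Fabp4 (-0.79), Rragd (-0.71), Atp6v0d2 (-0.69), Flcn (-0.64) and Gpnmb (-0.39). Other negative values were Dio2 (-2.62), Gprc5b (-1.98), Pdpn (-1.87) and Gdf15 (-1.46).

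Genes with a positive value outside cell division were Hpgd (2.38), Ctla2b (1.92), Psat1 (1.46), Ms4a6b (1.29), Pdk1 (1.01), Cx3cr1 (0.94), Selenop (0.67), Tfrc (0.61), C1qa (0.54), C1qc (0.48), Cadm1 (0.45) and Tyrobp (0.45). The remaining described genes were Il1rn (-1.45), Fcgr2b (-0.73) and Hk1 (-0.52).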

How the results depend on the processing

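Counts of called genes kept within 1.5 times of their value under other normalizations, tools, filters and samples, with these exceptions. A 2-fold limit lowered them, by its construction, from 3223 to 607 under BafA1, from 3649 to 906 in DMSO and from 1062 to 325 for the difference between the treatments. Leaving out each library gave 2163 to 3320 genes under BafA1, 3015 to 3759 in DMSO and 665 to 1193 for the difference between the treatments, which fell to 665 without WT DMSO replicate 2 and to 695 without Trem2 KO DMSO replicate 2, with fewer samples in the fit. DESeq2 called 2671 genes under BafA1. Trem2 stayed called in every setting, with -1.44 to -1.28 when a library was left out. No result reversed. Of 161 described genes 152 kept their call in every setting run; Irgm2 lost it in 11 settings, Mmp14 in 5 and Tgtp2 in 1, as given above; Prr12 lost it in limma-voom and without WT BafA1 replicate 2, Pdpn and S100a8 lost it without some libraries and Saa3 in DESeq2, and H2-Eb1 and Dio2 gained it in some settings. The cause was not tested. List counts of 3 or fewer often moved by 1 or more members. Other scalings moved the median of all genes to between -0.01 and 0.03.

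Replicate numbers are shared by the groups, but same-numbered WT and Trem2 KO libraries did not deviate together under BafA1 (correlations of -0.019, -0.10 and 0.01). The Trem2 KO libraries in DMSO and BafA1 had 0.074, 0.16 and 0.12, and the WT libraries in DMSO and BafA1 -0.005, 0.043 and 0.061. Such values cannot decide whether same-numbered cultures of a genotype came from the same pool. The numbers were not taken as pairs. With the number as a replicate block the counts were 3225 under BafA1, 3640 in DMSO and 1031 for the difference between the treatments. That block was shared by both genotypes, so pairing within each genotype was not tested.

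With 4407466 to 7074860 counts per library, rare genes are limited by counting error.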

Other observations

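Further gene lists gave mixed counts under BafA1, to be read against 12.5% higher and 14.2% lower over all genes. Macrophage identity genes had 4 higher and 4 lower of 16 and colony-stimulating factor genes and receptors 3 and 3 of 9. Macrophage lineage transcription factors had 7 higher and 4 lower of 24, where the 7 lay between 2 and 8 over the settings tried. Toll-like receptors and Unc93b1 had 2 and 2 of 14, Fc gamma receptors 2 and 1 of 7, and metallothioneins and zinc transporters 1 and 3 of 9. The urokinase system and S100 proteins, a list made after the values were seen, had 4 and 4 of 12, and the 4 higher became 2 without WT BafA1 replicate 1 or 2 or Trem2 KO BafA1 replicate 3, or with a filter of 10 CPM. Among markers of other cells, 1 of 4 dendritic cell, 1 of 3 T and NK cell, 1 of 1 stromal and 1 of 5 endothelial genes were higher and 1 of the 5 endothelial genes was lower. The single tested genes of the B and plasma cell list and of the erythroid and megakaryocyte list did not pass.

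Ribosomal features were tested with all genes and are given here by class. Of 130 tested features named as ribosomal protein pseudogenes, 51 were higher and 4 lower in Trem2 KO under BafA1 (median log2 difference 0.63), and 0 were higher and 23 lower in DMSO (median -0.25). Of 88 ribosomal protein genes 13 were higher and 4 lower under BafA1 (median 0.07), and 1 was higher and 46 lower in DMSO (median -0.25). Pseudogenes share sequence with their parent genes, so the split of reads between them is uncertain. The share of counts in ribosomal protein genes was 5.59% to 5.94% in WT and 5.40% to 6.12% in Trem2 KO under BafA1, and the groups overlapped. All 4 tested features of 7SL and 7SK RNA were higher under BafA1 (median 1.15), and 3 of them in DMSO.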
